A study of Astyanax mexicanus with 6 samples.

Results

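In liver of Astyanax mexicanus, 1726 regions of open chromatin were detected in all 3 forms of the fish but had clearly wider peaks in both cave forms, Pachon cave and Tinaja cave, than in the river-dwelling Surface form. A. mexicanus, the Mexican tetra, has blind cave forms and a sighted surface form. Peaks of the 3 deposited lists, 1 per form, were joined into 110214 regions wherever they overlapped or touched. A region was a member when it lay on 1 of the 25 numbered chromosomes, spanned less than 2000 bp, held exactly 1 peak of each list, and had a Pachon cave peak and a Tinaja cave peak each at least 1.5 times as wide as its Surface peak. Of the 110214 regions, 75330 lay on chromosomes, 32629 of these had a peak in all 3 lists, 30589 had exactly 1 of each, and 29579 of those were under 2000 bp and are called eligible here. The members made up 5.84% of the eligible regions. The members were chosen by these peak widths, so the widths below describe them and are not evidence of a difference.

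The study profiled liver by ATAC-seq in 6 samples, 2 each of Pachon cave, Tinaja cave and Surface fish. The labels give no age, sex, feeding state or treatment for any form, and do not say whether a sample was 1 fish. Each form has 1 peak list with no score, height or read depth, so nothing below has a spread between fish and no test between forms was possible. All comparisons are between these 3 lists.

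ATAC-seq uses the Tn5 transposase, which cuts DNA that nucleosomes leave accessible. Promoters and enhancers are the usual sites of such cuts, and a peak marks a stretch where the cuts are dense enough to pass the peak caller's threshold. A peak becomes wider when accessible DNA reaches further to the sides, but also when more reads lift the flanks of the same site over the threshold. As background, the liver stores fat and glycogen and controls their release, and cave forms are known for fatty livers and for surviving long starvation. No gene is assigned to a region, because no genome or annotation of the build of the peak lists was used here.

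In the members a narrow Surface peak stood inside, or beside the end of, a medium-sized cave peak. Pachon cave peaks of the 1726 members ran from 321 to 1973 bp with a median of 655.5 bp. Tinaja cave peaks ran from 334 to 1993 bp with a median of 687 bp. Surface peaks ran from 212 to 1130 bp with a median of 295 bp. The cave peaks of the members were therefore of ordinary size, since the medians over the other 27853 eligible regions were 570 bp in Pachon cave and 610 bp in Tinaja cave. The Surface peaks of the members were short against a median of 654 bp in those other regions.

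**Figure D1:**
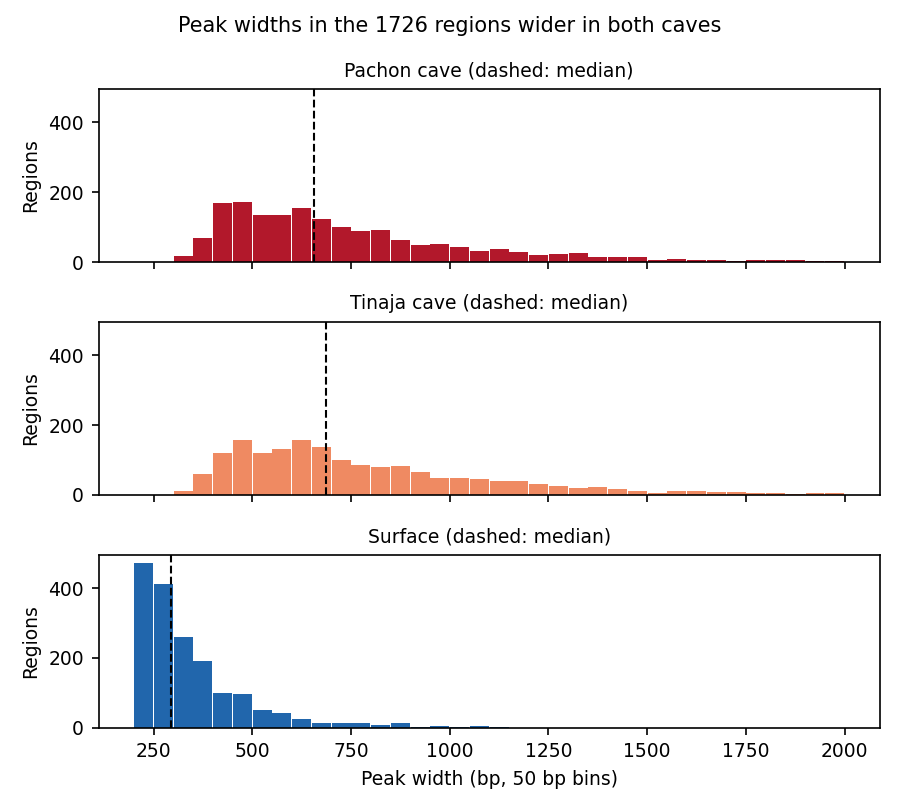
Peak widths in the 1726 members, one panel per list, as the number of regions in each 50 bp bin, with the median dashed. Surface widths crowd at the low end around their median of 295 bp, while the cave widths spread around 655.5 bp in Pachon cave and 687 bp in Tinaja cave.

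Most members passed the width rule by a modest factor, and a small group far exceeded it. The median width ratio over Surface was 1.96 in Pachon cave and 2.09 in Tinaja cave. In base pairs the median gain was 328 bp in Pachon cave and 371 bp in Tinaja cave. Taking for each region the smaller of its ratios, 1068 members (61.9%) lay from 1.5 to under 2, 503 (29.1%) from 2 to under 3, 140 (8.11%) from 3 to under 5, and 15 (0.869%) at 5 or more.

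Widths on either side of the limit were close. On chromosome 5, at positions 28093844 to 28094368, both cave peaks measured 438 bp and the Surface peak 292 bp, exactly at the limit. On chromosome 6, at 8370842 to 8371540, the peaks measured 698 bp in Pachon cave, 693 bp in Tinaja cave and 462 bp in Surface. On chromosome 9, at 21579264 to 21579746, they measured 411, 336 and 224 bp in Pachon cave, Tinaja cave and Surface. In the last of these the Tinaja cave peak was at the limit and the Pachon cave peak well above it. Just outside, a region of chromosome 3 at 36388240 to 36389787 had 1505 bp in Pachon cave, 1548 bp in Tinaja cave and 1004 bp in Surface, a Pachon cave ratio of 1.499. On chromosome 10, at 20956167 to 20956760, the widths were 578, 487 and 325 bp, and at 35225983 to 35226555 they were 549, 385 and 257 bp, in the same order of lists. In both, the Tinaja cave peak fell short of the limit.

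The mirror pattern was about as frequent. Over all 29579 eligible regions, the Pachon cave peak was at least 1.5 times as wide as the Surface peak in 8.52% and the Tinaja cave peak in 10.8%. The opposite, a cave peak narrower than Surface by the same factor, held in 15.8% for Pachon cave and 11.6% for Tinaja cave. Regions narrower in both caves numbered 2070 (7% of the eligible regions), so that wider regions were 0.834 times as many. The rule does not give both sets equal room. A region with a Surface peak under 300 bp could be wider but could not be narrower in both caves. Conversely, the longest Surface peaks left no room for wider cave peaks under the limit of 2000 bp. In 88 regions (0.298%) 1 cave was wider and the other narrower by that factor. Both cave comparisons share the Surface list, so a Surface peak that is short or long for its site moves both ratios together. The balance of wider and narrower depended on scale: of the regions changed by the factor in both caves, 45.5% were wider as deposited and 57.9% when each width was divided by its list's median over eligible regions.

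**Figure D2:**
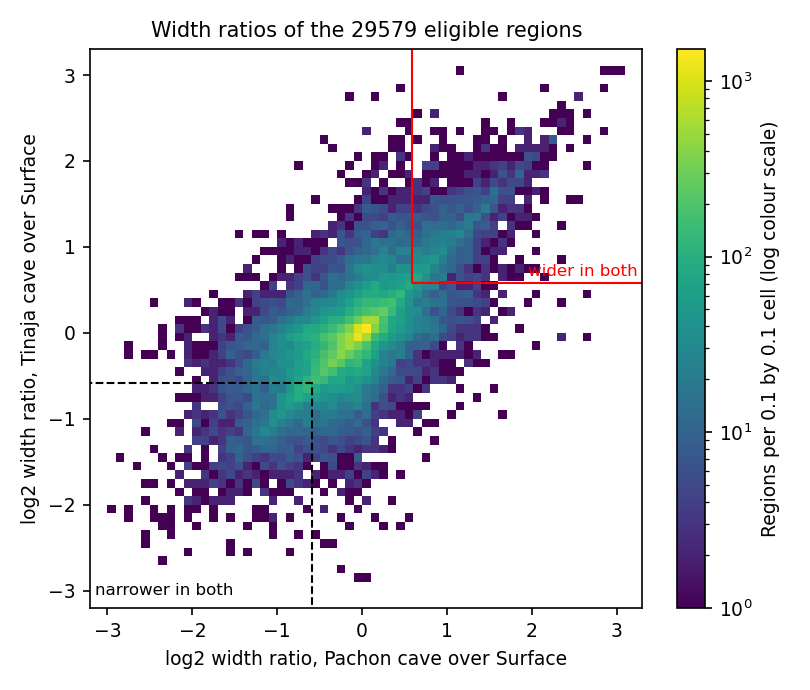
Log2 width ratio over Surface in Pachon cave (x axis) and Tinaja cave (y axis) for the 29579 eligible regions, with colour for the number of regions per cell on a log scale. The red corner holds the 1726 members and the dashed corner the 2070 regions narrower in both caves. Both axes divide by the same Surface width, which by itself stretches the cloud along the diagonal.

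Members were found where the Surface peak was short. Of the 2728 eligible regions with a Surface peak under 300 bp, 883 were members (32.4%, Wilson 95% interval 30.6 to 34.1). The share was 15.2% from 300 to under 400 bp, 4.58% from 400 to under 500 bp, 1.84% from 500 to under 700 bp, 0.816% from 700 to under 1000 bp and 0.129% above that. Part of this slope is set by the rule, because the Surface width divides both ratios and short Surface peaks raise them. Regions narrower in both caves ran the other way, from 0% with Surface peaks under 300 bp to 12.6% from 1000 to under 2000 bp. The rule shapes this slope too. The 0% was fixed in advance, since no cave list holds a peak short enough to be narrower by the factor there. The limit of 2000 bp leaves little room only beside the longest Surface peaks. Of the regions it left out, 88 met the width rule. The narrowest peak of the whole list was 221 bp in Pachon cave, 226 bp in Tinaja cave and 212 bp in Surface. Within 10 bp of that lower end lay 153 Surface peaks of members (8.86%), against 326 of all eligible regions (1.102%). No cave peak of a member can lie near the lower end of its own list under the rule. Wilson intervals here and below cover counting error only, not variation between fish.

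Over the whole set, the extra width of the cave peaks favoured neither lower nor higher coordinates. These directions are arbitrary for regions without a strand or a gene, so an even split says nothing about the symmetry of single members. Measured from the edges of the Surface peak, the median extension was 153.5 bp towards lower and 149 bp towards higher coordinates in Pachon cave. In Tinaja cave it was 175 bp and 166.5 bp. The longer extension pointed to lower coordinates in 864 of 1726 members (50.1%) in Pachon cave and in 850 (49.2%) in Tinaja cave. In the other eligible regions the shares were 49.8% in Pachon cave and 49.3% in Tinaja cave. Most of those regions had little extra width. The Surface peak stuck out past the cave peak in 80.4% of them in Pachon cave and 73.2% in Tinaja cave.

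Within single members, extension past both ends of the Surface peak and extension past mainly 1 end were both common. The longer side had a median of 292.5 bp in Pachon cave and 312.5 bp in Tinaja cave. The shorter side had a median of 37 bp in Pachon cave and 49 bp in Tinaja cave. The cave peak reached at least 50 bp beyond both ends of the Surface peak in 747 members (43.3%) in Pachon cave and in 858 (49.7%) in Tinaja cave. In 460 members (26.7%) of Pachon cave and 333 (19.3%) of Tinaja cave the Surface peak stuck out past 1 end of the wider cave peak. The Surface peak lay wholly inside both cave peaks in 1154 members (66.9%), and in 585 (33.9%) both caves reached at least 50 bp further on both sides.

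Extension on both sides became more common with the size of the ratio. Where the smaller ratio was under 2, Pachon cave peaks reached at least 50 bp beyond both ends in 36.3% of 1068 members and Tinaja cave peaks in 40.9%. From 2 to under 3 the shares were 48.9% and 59.8% of 503 members, for Pachon cave and Tinaja cave. At 3 or more they were 72.9% and 77.4% of 155 members. These last members had median widths of 1072 bp in Pachon cave, 1094 bp in Tinaja cave and 254 bp in Surface. Longer gains leave more room on both sides, so the trend follows in part from the sizes themselves.

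Averaged over all members, the cave lists formed a broad slope around the Surface peak. At 200 bp towards higher coordinates from the middle of the Surface peak, 73.2% of members still had the Pachon cave peak, 78.2% the Tinaja cave peak and 22.7% the Surface peak. At 300 bp the shares were 51.6% in Pachon cave, 56.6% in Tinaja cave and 5.91% in Surface. At 500 bp they were 23.4%, 26.1% and 0.406% in the same order. In the other eligible regions the Surface list had the largest share at 300 bp, with 47.9% in Pachon cave, 52.2% in Tinaja cave and 57.6% in Surface. At 700 bp Tinaja cave had the largest, with 4.76%, 5.59% and 5.31% in the same order. Distances start at the middle of the Surface peak, so the Surface list covers the middle by construction. For the same reason no Surface peak can reach 1000 bp in regions under 2000 bp, while a cave peak off the middle can. This favours the cave lists at the far ends. The other regions also leave out the members, whose Surface peaks are short.

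**Figure D3:**
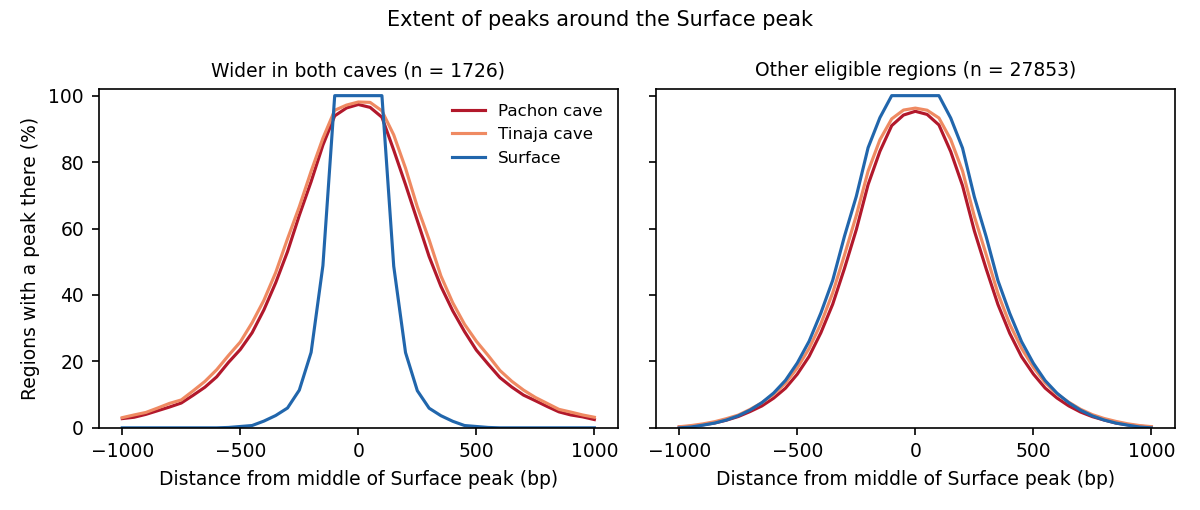
Share of regions whose peak covers a given distance from the middle of the Surface peak, for each list, in the 1726 members (left) and the 27853 other eligible regions (right). In the members the cave curves lie far outside the Surface curve on both sides. At 300 bp they stand at 51.6% in Pachon cave and 56.6% in Tinaja cave, against 5.91% in Surface. In the other regions Surface is highest at 300 bp, with 57.6% against 47.9% in Pachon cave and 52.2% in Tinaja cave. The Surface curve falls below both cave curves at the far ends, where by construction it must reach 0% by 1000 bp.

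Set against each other, the cave peaks of a member were often close in width. The Tinaja cave and Pachon cave widths were within a factor of 1.1 of each other in 815 members (47.2%), and in 976 of the regions narrower in both caves (47.1%), which were chosen the same way. The other eligible regions are a mixture: the share was 91.9% of the 5894 regions whose cave widths were both within a factor of 1.1 of Surface, and 32.1% of the remaining 21959. Tinaja cave was the wider cave in 1053 members (61.0%), against 60.1% of the other eligible regions. It was at least 1.5 times as wide as Pachon cave in 122 members (7.07%), against 10.9% of the other eligible regions. Pachon cave was at least 1.5 times as wide as Tinaja cave in 55 members (3.19%), against 5.16%. These widths and edges entered the choice of members, so the shares are descriptions only.

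Both edges of the cave peaks lay within 50 bp of each other in 598 members (34.6%) and in 46.1% of the regions narrower in both caves. The share was 79.8% of the regions near Surface in width and 29.0% of the remaining eligible regions. The median distance between the cave edges was 41 bp at the lower end and 40 bp at the upper end in members.

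The 10 members with the largest smaller ratio show how far the pattern can go. The first lay on chromosome 7 at positions 33613202 to 33615069, with a peak of 1859 bp in Pachon cave and 1844 bp in Tinaja cave, against 223 bp in Surface. The Surface peak sat at the lower end, and the cave peaks ran 1645 bp in Pachon cave and 1621 bp in Tinaja cave past its upper edge. The log2 ratio was 3.06 in Pachon cave and 3.05 in Tinaja cave.

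A region of chromosome 17 at 24478640 to 24480462 had the same shape. Its peaks measured 1643 bp in Pachon cave, 1823 bp in Tinaja cave and 220 bp in Surface. Beyond the upper edge of the Surface peak the cave peaks ran 1428 bp in Pachon cave and 1465 bp in Tinaja cave. On chromosome 3, at 52206489 to 52208346, the Surface peak of 224 bp sat near the upper end instead. There the Pachon cave peak of 1656 bp ran 1367 bp, and the Tinaja cave peak of 1858 bp ran 1500 bp, past the lower edge of the Surface peak. In both regions the cave peaks thus ran out mainly to 1 side, in opposite directions.

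On chromosome 2, at 16604575 to 16606391, the cave peaks of 1796 bp in Pachon cave and 1807 bp in Tinaja cave surrounded a Surface peak of 246 bp. Their lower edges differed by 10 bp and their upper edges by 21 bp, so that the caves gave nearly the same interval. These 4 regions had ratios above 7 in both caves.

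The remaining 6 of the 10 had smaller ratios between 5.245 and 5.996. On chromosome 6, at 39187878 to 39189346, widths were 1349 bp in Pachon cave, 1469 bp in Tinaja cave and 225 bp in Surface. On chromosome 4, at 16472432 to 16473897, they were 1294 bp in Pachon cave, 1466 bp in Tinaja cave and 217 bp in Surface. The chromosome 4 region was the most even of these, with 479 bp towards lower and 598 bp towards higher coordinates in Pachon cave and 489 and 760 bp in Tinaja cave.

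On chromosome 18, at 40497021 to 40498902, widths were 1882 bp in Pachon cave, 1730 bp in Tinaja cave and 305 bp in Surface. On chromosome 25, at 3606107 to 3607539, they were 1312 bp in Pachon cave, 1433 bp in Tinaja cave and 245 bp in Surface. The chromosome 18 region was among the 3 of the 10 where Pachon cave was the wider cave, together with those of chromosomes 7 and 20.

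On chromosome 24, at 16439094 to 16440621, widths were 1457 bp in Pachon cave, 1465 bp in Tinaja cave and 276 bp in Surface. On chromosome 20, at 16830908 to 16832059, they were 1151 bp in Pachon cave, 1133 bp in Tinaja cave and 216 bp in Surface. The cave edges of the chromosome 20 region differed by 1 bp at the lower and 19 bp at the upper end. Of the 20 regions flanking these 10 members, 8 were open in all 3 forms, 4 in Tinaja only, 3 in Pachon only and 2 in both caves only. Of the rest, 1 was open in Surface only, 1 in Surface and Tinaja only and 1 in Surface and Pachon only. The 5 members with the largest smaller gain in base pairs, from 1423 to 1621 bp, were all among these 10, on chromosomes 7, 2, 3, 18 and 17.

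**Figure D4:**
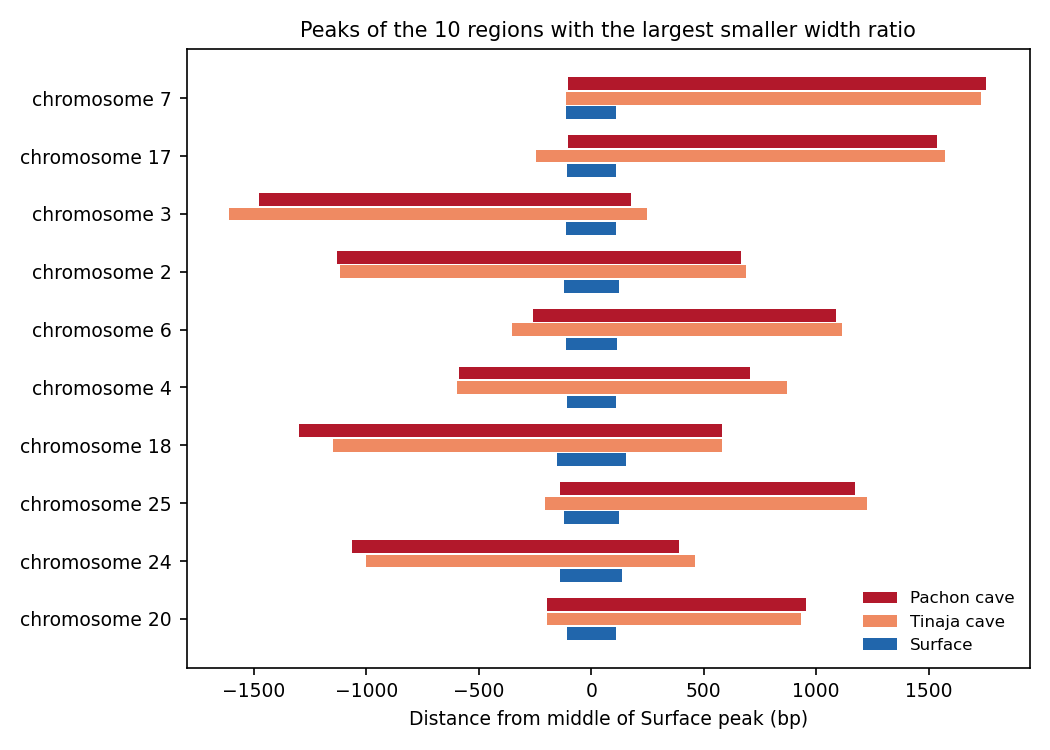
Extent of the Pachon cave, Tinaja cave and Surface peaks, from top to bottom in each group, for the 10 members with the largest smaller ratio, as distance from the middle of the Surface peak. Each bar is 1 peak. The Surface peaks span 216 to 305 bp, and the cave peaks reach past them mainly on 1 side on chromosomes 7, 17, 3, 6, 25 and 20.

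Regions next to the members did not enter the rule, and they differed from the neighbours of other eligible regions in which lists had a peak. The nearest region on either side of a member had a peak in the Surface list in 2149 of 3449 cases (62.3%, Wilson 95% interval 60.7 to 63.9), against 73.9% (interval 73.5 to 74.3) around the other eligible regions. For the cave lists the differences were small: 66.4% against 68.2% for Pachon cave, and 75.5% against 77.2% for Tinaja cave. Neighbours of regions narrower in both caves had a Surface peak in 75.1% (interval 73.7 to 76.4), a Pachon cave peak in 68.1% and a Tinaja cave peak in 76.5%. Neighbouring regions of members thus had a Surface peak less often than those of either set, while their shares with a cave peak were close to those elsewhere. Members mostly have short Surface peaks. With a Surface peak under 300 bp the shares were 60.7% around members and 69.9% around the others. They were 65.6% and 72.2% from 300 to under 400 bp, and 61.0% and 73.3% from 400 to under 500 bp. From 700 bp upward the intervals overlapped. These are shares of neighbouring regions, not densities of peaks along the chromosome. The neighbours of members also lay further off, at a median gap of 6743 bp against 5810 bp around the other eligible regions. No test over samples stands behind these shares, and their intervals treat neighbouring regions as independent.

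Neighbours with a peak in both cave lists but none in Surface, called open in both caves only, were the class with the largest relative excess beside members. They made up 455 of 3449 neighbours (13.2%, interval 12.1 to 14.4), against 8.19% (interval 7.96 to 8.42) around the other eligible regions and 8.57% (interval 7.76 to 9.47) around the regions narrower in both caves. Around regions with both cave widths within a factor of 1.1 of Surface the share was 7.10% (interval 6.65 to 7.58). At least 1 of the flanking regions was open in both caves only for 413 of 1723 members (24.0%, interval 22.0 to 26.0), against 15.6% of the other eligible regions. Both flanking regions were of that class for 42 members (2.44%), against 0.815% of the others.

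Regions of a single cave were also more frequent beside members, and regions open in all 3 forms less so. Tinaja-only regions made up 15.9% of the neighbours of members, against 11.8% around the other eligible regions. Pachon-only regions made up 8.61% against 6.09%. Surface-only regions made up 11.6% against 13.0%, and regions open in all 3 forms 40.4% (interval 38.7 to 42.0) against 50.1%. The nearest regions lay a little further off, with a median gap of 6743 bp around members and 5810 bp around the other eligible regions. With neighbours limited to 10 kb, the share open in both caves only was 12.2% around members and 7.22% around the others.

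The share was higher around members at nearly every width of the Surface peak, but the intervals did not always separate. With a Surface peak under 300 bp, 13.9% of the neighbours of members were open in both caves only, against 8.48% around other eligible regions of that width. From 300 to under 400 bp the shares were 13.2% and 8.42%. From 400 to under 500 bp they were 11.7% (interval 8.91 to 15.3) and 8.69% (interval 8.10 to 9.32), so that the intervals overlapped. From 500 to under 700 bp they were 10.2% and 8.24%, where the interval around members, 7.12 to 14.5, includes the value of the others. From 700 to under 1000 bp they were 14.9% and 8.11%. With Surface peaks above that, 1 of 14 neighbours of members was of the class (7.14%), too few to compare with 7.64% around the others. By chromosome, the share was higher around members than around the other eligible regions on 23 of 25 chromosomes, the exceptions being chromosomes 15 and 19.

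The share was 12.0% (interval 10.7 to 13.5) around members with a smaller ratio under 2, 15.2% (interval 13.1 to 17.6) from 2 to under 3, and 14.5% (interval 11.0 to 18.9) at 3 or more. Neighbours with a Surface peak made up 64.0% (interval 62.0 to 66.0), 60.4% (interval 57.3 to 63.3) and 56.8% (interval 51.2 to 62.2) in the same order. The intervals of the 3 classes overlapped for both measures, but for the Surface list those of the first and last class barely did. Such overlap does not show that the shares are equal.

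The differences between members and the other eligible regions narrowed along the chromosome. For the second region to either side the share open in both caves only was 12.2% around members and 8.58% around the other eligible regions. For the fifth it was 10.3% and 9.24%, and for the twentieth 11.1% (interval 10.1 to 12.2) and 9.86% (interval 9.61 to 10.1). The share with a Surface peak was 62.1% around members and 72.2% around the others at the second region, and 64.1% and 68.0% at the twentieth. At the first region it was 62.3% around members and 73.9% around the others. Most of the narrowing for the Surface list thus came from a fall around the others, while the share around members changed little.

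**Figure D5:**
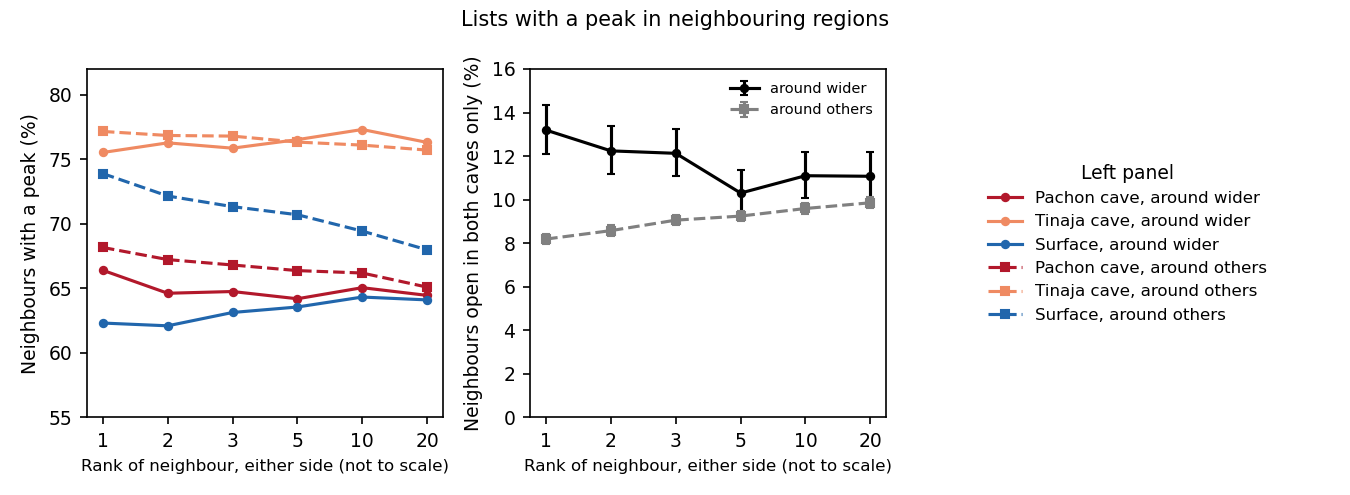
Left, share of neighbouring regions with a peak in each list; right, share open in both caves only, with Wilson 95% bars; both by rank of the neighbour on either side, around the 1726 members (solid) and the other eligible regions (dashed). The Surface lines are far apart at the first neighbour, at 62.3% around members and 73.9% around the others. They draw closer with rank, mainly as the line around the others falls. For each cave, the lines around members and around the others stay near each other.

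Neighbouring peaks had ordinary widths in the median, and the share of members among them was somewhat higher, resting on 43 adjacent pairs. Of the 3449 neighbours, 1265 were eligible regions themselves. Their median log2 width ratio over Surface was -0.07 for Pachon cave and -0.01 for Tinaja cave, against -0.08 and -0.02 around the other eligible regions. Of these eligible neighbours, 86 around members were members themselves (6.80%, interval 5.54 to 8.32), against 4.61% (interval 4.36 to 4.87) around the other eligible regions. Regions narrower in both caves made up 7.51% (interval 6.18 to 9.09) around members and 7.07% around the others. Around regions narrower in both caves they made up 9.36% (interval 8.13 to 10.8). A higher share of like regions side by side was therefore not particular to members. With neighbours limited to 10 kb, members made up 5.79% (interval 4.39 to 7.59) around members and 4.22% (interval 3.94 to 4.52) around the others, so that the intervals overlapped. Members stood next to each other in 43 places, and the longest run of adjacent members was 3. Each such pair is counted from both sides in the 86, so the interval of 5.54 to 8.32 is too narrow. It includes 5.84%, the share of members among all eligible regions, but lies above 4.71%, their share among the eligible neighbours of all eligible regions. The 5.84% is not a like baseline for neighbours. Eligible regions made up 1265 of 3449 neighbours around members, against 25571 of 55694 around the other eligible regions.

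Members were spread over all 25 chromosomes. Their share of the eligible regions ranged from 4.34% on chromosome 9 (57 of 1312, interval 3.37 to 5.59) to 8.35% on chromosome 24 (117 of 1402, interval 7.01 to 9.91). The interval excluded the genome-wide share on 3 of 25 chromosomes, namely 9, 17 (7.63%) and 24. Narrower regions outnumbered members on 18 chromosomes and members outnumbered narrower regions on 6, among them chromosome 24 with 117 members and 81 narrower regions.

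No stretch of the genome held a large block of members. Of 763 windows of 1 Mb with at least 20 eligible regions, 106 held no member, and the median was 2. The highest share was on chromosome 19 from 30000001 to 31000000, with 6 of 21 eligible regions (28.6%). The most members, 8 of 58 eligible regions, lay on chromosome 10 from 19000001 to 20000000, together with 4 narrower regions.

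In that window the largest change was at 19252976 to 19253735 of chromosome 10, with 732 bp in Pachon cave, 739 bp in Tinaja cave and 276 bp in Surface. At 19200911 to 19201823 the peaks measured 868, 913 and 356 bp in Pachon cave, Tinaja cave and Surface. At 19985930 to 19986959 they measured 945 bp in Pachon cave, 1030 bp in Tinaja cave and 454 bp in Surface. The other 5 members of the window had smaller ratios of 1.51 to 1.67. They began at positions 19342002, 19392035, 19399084, 19503120 and 19630988. Of the 16 regions flanking the 8 members, 9 were open in all 3 forms and 2 in both caves only, both beside the member at 19200911. Of the rest, 2 were open in Tinaja only, 2 in Surface only and 1 in Surface and Pachon only. The members at 19392035 and 19399084 flank each other, so each of them is counted among the 9.

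Regions left out by the limits of the rule held the same pattern at somewhat higher rates. On unplaced scaffolds 851 of 11355 otherwise eligible regions (7.49%) met the width rule. Of 1010 chromosomal single-peak regions of 2000 bp or more, 88 (8.71%) met it. Narrower regions rose in number from 2070, but by a smaller factor than the regions considered, so their rate did not rise. With scaffolds included there were 2577 wider and 2794 narrower regions among 40934. Without the length limit there were 1814 wider and 2126 narrower among 30589. The ratio of wider to narrower regions was 0.922 with scaffolds and 0.853 without the length limit, against 0.834 in the main set. A further 384 regions under 2000 bp had 1 peak of each cave list but 2 or more Surface peaks, and were not eligible whatever their widths.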

How the data were processed

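ATAC-seq reads came from 6 liver samples. Per the submitters' processing notes, the tools included MACS2, Bowtie2, SAMtools and bcl2fastq 2.20. The sources used here do not give settings, the genome build or whether replicates were pooled. The values used are peak starts and ends in the deposited lists, written 1-based. All values of the deposited score field were 0, so it was left aside. Read depth is unknown, and a deeper library can give wider peaks. A gene table of AstMex3 was not used, because its match to the build of the lists is not known. On 4 of 25 chromosomes peaks lay beyond its last gene, which by itself does not settle the match.

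Union regions, width ratios and neighbours were computed with Python 3.11.15, numpy 2.4.6 and pandas 2.3.3. The code of the rule was checked on simulated lists with centred cave peaks and width factors far from the limit. That check covers the code only, not how well the rule separates regions near the limit. Narrower regions met the inverse rule. Members, comparisons and the rule for named regions (the 10 largest smaller ratios, the 5 largest smaller gains, 3 each side of the limit, and the window with most members) were chosen with earlier results of these data known. Neighbour ranks, width strata and ratio classes were added after the lists were seen. The planned count of members extended on the same side in both caves is not given, because both comparisons share the Surface edges. Intervals are Wilson 95%.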

Additional observations from a re-analysis of the deposited data

How the results depend on the processing

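No paired analysis was possible because each form has 1 peak list, and for the same reason no replicate could be left out. The number of members, 1726, became 3164 at the lower factor tried, 658 at a factor of 2 and 843 with Surface peaks of at least 300 bp, and stayed within 1.5 times under the other 6 settings. The ratio of wider to narrower regions, 0.834, turned above 1 at a factor of 2 (1.20), with widths divided by list medians (1.38) and with cave peaks required to cover at least 50% of the Surface peak (1.96). That last setting drops narrow cave peaks by construction. The ratio was 0.666 at the lower factor, 0.709 with a gain of at least 200 bp, 0.407 with Surface peaks of at least 300 bp and 0.922 with scaffolds included. The 300 bp setting could remove wider regions but no narrower ones, which stayed at 2070, so it lowers the ratio by construction. The share of neighbours open in both caves only, 13.2%, was 12.0% at the lower factor and 15.1% at a factor of 2, and lay inside its interval under the other 8 settings. Under each of the 10, it exceeded the share around other eligible regions.

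Median log2 ratios of neighbouring peaks lay inside their main intervals under 7 settings for Pachon cave and 6 for Tinaja cave. For Pachon cave the value, -0.0726, changed sign to 0.0658 with scaled widths. For that cave it was -0.134 with Surface peaks of at least 300 bp and -0.0237 with the Surface peak covered. For Tinaja cave it was 0.0303, -0.0461 and 0.0151 under the same settings and -0.0278 with neighbours within 10 kb. Scaling shifts all ratios, and the settings on Surface width and on cover also change which neighbours are counted. The cause was otherwise not tested. The highest share of members in a window, 28.6%, has a wide interval (13.8 to 49.96) and ran from 18.2% at a factor of 2 to 39.1% at the lower factor. Of the 21 members named, 13 met a factor of 2, 8 had Surface peaks of at least 300 bp, 18 gained at least 200 bp, and all 21 met the other 6 settings. Parts of this were fixed in advance. The 10 with the largest smaller ratios met a factor of 2 by choice. A lower factor, added scaffolds or no length limit cannot remove a member, and scaling raises both ratios. With unknown depth and 1 list per form, none of these values has an error between fish.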
